A study of Mus musculus with 6 samples.

Results

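Respiratory complex I (NADH:ubiquinone oxidoreductase) was described here through its nuclear-encoded genes in eWAT, the epididymal white fat pad, of mice on a high-fat diet. Members were taken from the annotation of the array as rows that name 1 gene whose symbol starts with Ndufa, Ndufb, Ndufc, Ndufs, Ndufv or Ndufaf. For a gene with several such rows, the row with the highest mean over all 6 arrays was used. This gave 45 rows and 42 genes, of 22180 genes named on the array, and the 42 fell into 34 subunits and 8 assembly factors. The genes were chosen by symbol, with earlier results of these data known. Measured values served only to choose among several rows of a gene.

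The arrays compared 3 wild-type (WT) mice with 3 mice transgenic (Tg) for Blnc1 in adipose tissue. Blnc1, a noncoding RNA, was first studied in thermogenic fat. Both groups were male C57BL/6, 8 months old and on high-fat feeding for 21 weeks, so the controls received the diet too and no chow-fed group was compared. The promoter that drives the transgene was not given in the sources used here, and no row of the array is named Blnc1, so the transgene was not checked here.

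Complex I is the entry point of electrons from NADH into the respiratory chain. Its matrix arm takes electrons from NADH through a flavin and a chain of iron-sulfur clusters to ubiquinone, and its membrane arm pumps protons. A conserved catalytic core, part of which is encoded in mitochondrial DNA, is surrounded by accessory subunits that stabilise it, and assembly factors help to build it without staying in the finished enzyme. White adipocytes hold far fewer mitochondria than brown ones and use complex I to reoxidise the NADH that fuel breakdown yields.

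Values are log2 signals, so a difference of 1 is a 2-fold change, and differences are Tg minus WT with the standard error (SE) of the limma fit. Where 3 values of a genotype are given, they are those of replicates 1, 2 and 3 in that order. The array medians were 2.68, 2.75 and 2.72 in WT and 2.64, 2.67 and 2.64 in Tg, so every Tg median lay below every WT median. Ndufb1 was not analysed here, and Ndufb2, Ndufb4 and Ndufs6 appear only in rows that name several genes, so they are not among the members. The 7 subunits encoded in mitochondrial DNA have no named row and were not analysed here. All 13 measured white adipocyte markers, Adipoq and Fabp4 among them, had signals above 4 on every array.

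Most subunit genes read slightly higher in Tg, and 0 of the 42 members differed past the threshold. Limma gave adjusted p between 0.43 and 0.98 for the members, where 0 of 41345 rows passed (0%) at an adjusted p of 0.05 and 4263 rows had an unadjusted p under 0.05. The Tg mean was above the WT mean in 28 of 34 subunits, or 82.4%, against 47.2% of all rows and 50% of named genes. With each array centred on its median instead, 30 of 34 subunits and 64.5% of named genes read higher, since that scaling moved the median of all rows from -0.01 to 0.05. The median difference of the subunits was then 0.17 and that of named genes 0.07. As deposited, the median difference of the subunits was 0.10 (1.07-fold, n = 3 per group). That of all named genes was 0.00. In 17 of the 34 subunits (50%) the difference was larger than its SE, a share near that of all rows (46.2%). By direction, 15 of the 17 were upward and 2 downward, where 8607 of 41345 rows were so upward and 10500 downward. The difference was larger than the spread between replicates (the pooled SD within groups) in 15 subunits, of which 12 were upward. Of all rows, 39.4% were past that spread and 17.7% were so upward. The 95% intervals of all members lay between -0.62 and 0.71, so no interval reached a 2-fold change.

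**Figure D1:**
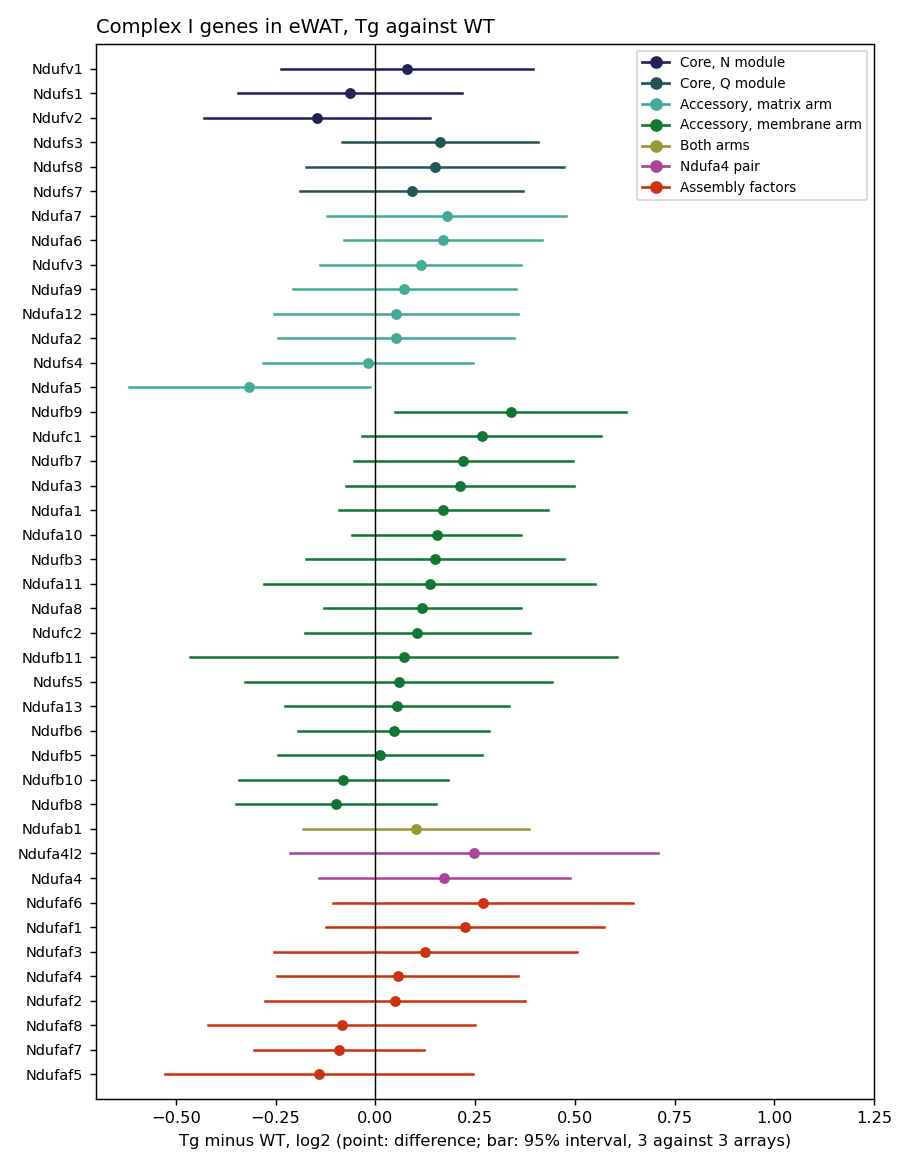
Tg minus WT difference (log2, x axis) of each of the 42 genes, grouped by role, with the 95% interval of the limma fit as bars. Only the intervals of Ndufb9 (0.05 to 0.63) and Ndufa5 (-0.62 to -0.01) leave out 0, and 28 of 34 subunit points lie to the right of it.

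The catalytic core in the matrix arm was covered by 6 genes. Ndufv1, Ndufv2 and Ndufs1 form the module that takes electrons from NADH, and Ndufs3, Ndufs7 and Ndufs8 belong to the module that passes them to ubiquinone. Of these, 4 read higher and 2 lower in Tg. Ndufv1, the subunit that binds NADH and the flavin, read 7.35, 7.14 and 7.04 in WT and 7.43, 7.19 and 7.15 in Tg. Ndufv2, an iron-sulfur protein beside it, read 7.90, 8.14 and 8.02 in WT and 7.90, 7.73 and 7.99 in Tg. Ndufs1, which carries several iron-sulfur clusters, read 7.21, 7.30 and 7.03 in WT and 7.25, 7.05 and 7.05 in Tg. The groups overlapped in all 3 genes. Their differences were 0.08 ± 0.13 (SE, n = 3 per group) for Ndufv1, -0.15 ± 0.12 for Ndufv2 and -0.06 ± 0.12 for Ndufs1, and that of Ndufs1 became 0.00 with each array centred on its median.

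All 3 measured genes of the ubiquinone module read higher in Tg. Ndufs3 read 4.72, 4.63 and 4.56 in WT and 4.89, 4.70 and 4.80 in Tg. Ndufs7, the subunit that holds the last iron-sulfur cluster before ubiquinone, read 7.44, 7.32 and 7.44 in WT and 7.67, 7.36 and 7.45 in Tg. Ndufs8, another iron-sulfur protein, read 7.86, 7.64 and 7.81 in WT and 8.04, 8.02 and 7.69 in Tg. Tg 1 was the highest of the 6 arrays in each of them, and at least 1 other Tg array lay within the range of the WT arrays. The differences were 0.16 ± 0.10 for Ndufs3, 0.09 ± 0.12 for Ndufs7 and 0.15 ± 0.13 for Ndufs8, with adjusted p of 0.62, 0.82 and 0.73 in limma. The upper ends of their 95% intervals were 0.41, 0.37 and 0.47.

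Accessory subunits of the matrix arm, which wrap around this core, were measured by 8 genes, 6 higher and 2 lower in Tg (median difference 0.06). The gene with the smallest p among them was lower. Ndufa5, a small subunit bound to the ubiquinone module, read 3.76, 3.55 and 3.71 in WT and 3.55, 3.25 and 3.27 in Tg. Its row was dim, with a mean of 3.51 where the median signal of the subunits was 6.67. Tg 2 and Tg 3 lay below every WT array and Tg 1 lay level with WT 2. The difference was -0.32 ± 0.13 (limma adjusted p = 0.47). It was the 1 member lower in Tg at an unadjusted p under 0.05, against 5.88% of all rows. Ndufs4, whose loss in mice gives a model of Leigh syndrome, read 6.93, 6.80 and 6.82 in WT and 6.97, 6.83 and 6.70 in Tg, a difference of -0.02 ± 0.11 that turned positive under 3 other scalings of the arrays. The remaining 6, Ndufa2, Ndufa6, Ndufa7, Ndufa9, Ndufa12 and Ndufv3, read higher by 0.05 to 0.18. Ndufa7 (0.18 ± 0.12) and Ndufa6 (0.17 ± 0.10), a member of the LYR protein family, were at the top of that range.

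The membrane arm held the member with the largest difference and every subunit whose groups did not overlap. Of its 17 measured accessory genes, 15 read higher in Tg and 2 lower, with a median difference of 0.12. In 5 of them the lowest Tg array exceeded the highest WT array, which held for 7.36% of all rows. Those 5 were Ndufb9, Ndufc1, Ndufb7, Ndufa3 and Ndufa10.

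Ndufb9, a LYR protein at the far end of the membrane arm, read 10.27, 9.99 and 9.93 in WT and 10.46, 10.38 and 10.38 in Tg. All Tg arrays lay above WT 1, the highest WT array, and the WT arrays were more spread than the Tg arrays (SD 0.18 and 0.05). Its difference of 0.34 ± 0.12, or 1.27-fold, had a limma adjusted p of 0.43. It was the 1 member higher in Tg at an unadjusted p under 0.05, against 4.43% of all rows. In WT 1, Tg 1 and Tg 3 alone the difference was 0.15.

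Ndufc1, a small membrane subunit, read 6.61, 6.63 and 6.34 in WT and 6.82, 6.89 and 6.67 in Tg, a difference of 0.27 ± 0.12. Ndufb7, which faces the intermembrane space, read 5.04, 4.88 and 5.18 in WT and 5.25, 5.34 and 5.18 in Tg (0.22 ± 0.11). Tg 3 and WT 3 were equal to the second decimal, so these groups touched. Ndufa3 read 9.43, 9.42 and 9.18 in WT and 9.69, 9.51 and 9.48 in Tg (0.21 ± 0.12). Ndufa10, a subunit with the fold of a nucleoside kinase, read 8.94, 8.95 and 8.86 in WT and 9.07, 9.06 and 9.09 in Tg. Its difference was small, 0.15 ± 0.09, and so was its spread, with an SD of 0.05 in WT and 0.01 in Tg. Limma's adjusted p for these 4 genes lay between 0.52 and 0.59. Without WT 3 the difference was 0.13 for Ndufa3 and 0.17 for Ndufc1, and without WT 2 it was 0.15 for Ndufb7.

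**Figure D2:**
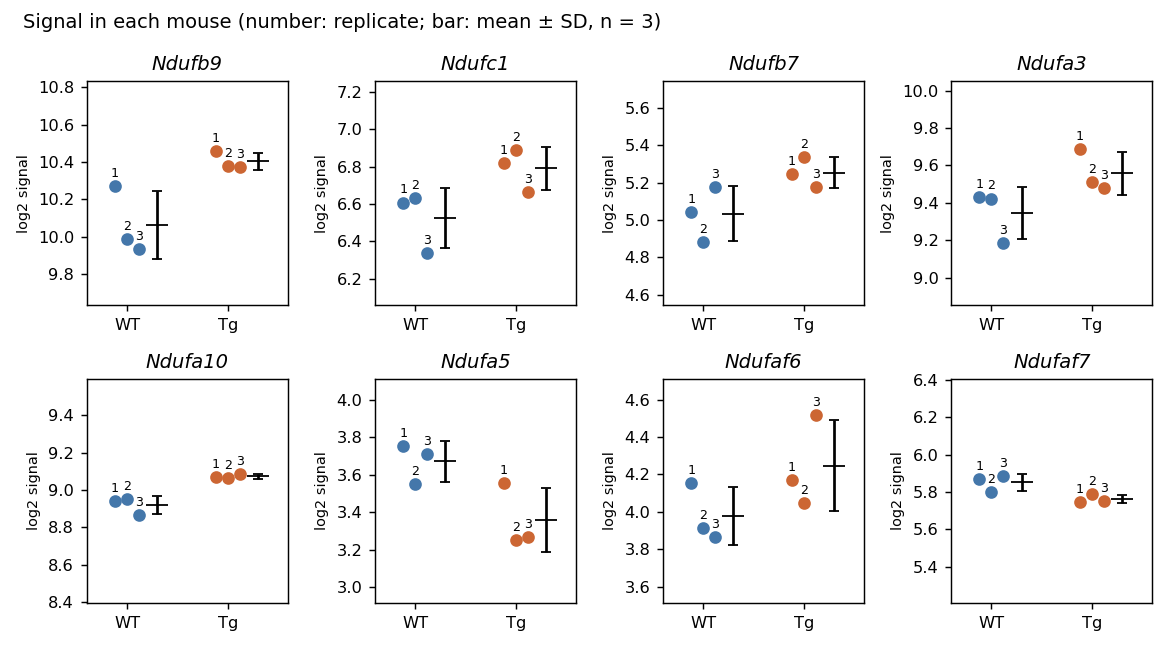
Log2 signal of 8 genes in each mouse (WT in blue, Tg in orange, replicate numbers beside the points, bars for mean ± SD, n = 3), each panel spanning the same range of 1.2 log2 units around the gene's mean. The Tg points of Ndufb9, Ndufc1, Ndufb7, Ndufa3 and Ndufa10 lie above the WT points, those of Ndufaf7 lie below, and Ndufa5 and Ndufaf6 overlap.

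The 2 membrane arm genes that read lower were Ndufb8 and Ndufb10. Ndufb8, a subunit often probed by antibody to follow assembled complex I, read 4.98, 4.83 and 5.02 in WT and 4.94, 4.78 and 4.81 in Tg (-0.10 ± 0.10). Ndufb10 read 5.05, 4.82 and 5.05 in WT and 4.98, 4.84 and 4.86 in Tg (-0.08 ± 0.11). The groups overlapped in both, and neither difference was larger than its SE. The other 10 genes of this arm (Ndufa1, Ndufa8, Ndufa11, Ndufa13, Ndufb3, Ndufb5, Ndufb6, Ndufb11, Ndufc2 and Ndufs5) read higher by 0.01 to 0.17 with overlapping groups. Among them Ndufa1 (0.17 ± 0.11) had the largest difference and Ndufb5 (0.01 ± 0.11) the smallest. Ndufa13, also known as GRIM-19, differed by 0.05 ± 0.12. Ndufab1, the mitochondrial acyl carrier protein that binds the LYR subunits and sits in both arms, differed by 0.10 ± 0.12.

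Beside the members there were 3 dimmer rows of member genes and 6 rows shared with other genes, and 0 of these 9 passed the threshold (limma adjusted p between 0.54 and 0.91). Dimmer rows of Ndufa8, Ndufa11 and Ndufa12 differed by 0.74 ± 0.36, 0.27 ± 0.16 and 0.33 ± 0.29, each larger than that gene's main row (0.12, 0.14 and 0.05). In the second Ndufa8 row Tg 2 read 6.34 and the other 5 arrays between 4.43 and 5.39. The row shared by Ndufb4, Ndufb4b and Ndufb4c differed by 0.12 ± 0.13, that shared by Ndufb2 and Adck2 by -0.06 ± 0.13, and those shared by Ndufs6 and Ndufs6b by 0.08 ± 0.14 and 0.21 ± 0.16. A row shared by Ndufs5 and the pseudogene Ndufs5-ps differed by 0.24 ± 0.16. Its mean was 5.98, brighter than the member row of Ndufs5 (mean 3.36, difference 0.06). The row shared by Ndufs1 and Ino80dos had all Tg values under all WT values (-0.18 ± 0.11), while the main row of Ndufs1 overlapped. Signals of such rows cannot be divided among their genes.

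Ndufa4 was first described as part of complex I and has since been placed in complex IV, and Ndufa4l2 is its paralog, known to be induced by hypoxia. Ndufa4 read 8.87, 8.84 and 8.84 in WT and 9.22, 8.79 and 9.06 in Tg. The WT arrays were close together (SD 0.02) and the Tg arrays were spread around them (SD 0.22). Ndufa4l2 read 6.07, 5.62 and 5.53 in WT and 6.25, 5.92 and 5.78 in Tg. Both differences, 0.17 ± 0.13 and 0.25 ± 0.19, came with overlapping groups. Without this pair the subunits were higher in 26 of 32 genes, with a median of 0.10 as before.

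The assembly factors were more evenly divided. Of 8 genes, 5 read higher and 3 lower in Tg, with a median difference of 0.05, and limma's adjusted p lay between 0.60 and 0.92. Ndufaf1, part of the assembly complex of the membrane arm, read 5.40, 5.55 and 5.22 in WT and 5.67, 5.39 and 5.78 in Tg (0.22 ± 0.14). Ndufaf6, needed for an early step of assembly, read 4.15, 3.91 and 3.87 in WT and 4.17, 4.05 and 4.52 in Tg (0.27 ± 0.16). Tg 3 was the highest array in both genes, and without it the difference of Ndufaf6 was 0.13.

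Ndufaf3 and Ndufaf4 bind each other and the ubiquinone module. Ndufaf3 read 5.82, 5.55 and 5.56 in WT and 6.05, 5.69 and 5.57 in Tg (0.13 ± 0.16). Ndufaf4 read 5.81, 6.01 and 5.94 in WT and 5.81, 5.96 and 6.16 in Tg (0.06 ± 0.13). Their highest arrays were different mice, Tg 1 for Ndufaf3 and Tg 3 for Ndufaf4. Ndufaf2, a paralog of Ndufa12 that acts late in assembly, read 3.21, 3.17 and 3.38 in WT and 3.10, 3.51 and 3.30 in Tg (0.05 ± 0.14).

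The 3 factors that read lower were Ndufaf5, Ndufaf7 and Ndufaf8. Ndufaf7, a mitochondrial methyltransferase, read 5.87, 5.80 and 5.89 in WT and 5.75, 5.79 and 5.75 in Tg. It was the 1 member whose highest Tg array was under its lowest WT array, against 9.35% of all rows, and its difference was small (-0.09 ± 0.09). Ndufaf5, which hydroxylates Ndufs7, read 3.69, 4.02 and 4.24 in WT and 3.88, 3.72 and 3.92 in Tg (-0.14 ± 0.16). Its partner Ndufaf8 read 5.66, 5.37 and 5.26 in WT and 5.48, 5.30 and 5.25 in Tg (-0.08 ± 0.14). WT 1 was the lowest array for Ndufaf5 and the highest for Ndufaf8. The difference of Ndufaf5 was -0.29 without WT 1 and -0.012 without WT 3.

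Set side by side, the median difference was 0.10 for subunits and 0.05 for assembly factors, 0.05 apart, and the share higher in Tg was 82.4% and 62.5%. The classes were not alike in signal, with medians of 6.67 for subunits and 5.44 for assembly factors, and RMA compresses differences between low signals. This gap in differences was not tested, since a score over chosen genes gives no independent p. Without Tg 1 the medians were 0.05 and 0.06, and 21 of 34 subunits and 4 of 8 factors read higher. Without Tg 2 they were 0.14 and 0.01, and without Tg 3 they were 0.13 and 0.01. Without WT 2 they were 0.06 and 0.04, with 24 of 34 subunits higher. The order of the 2 classes turned only with the removal of Tg 1 among these 6 omissions.

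**Figure D3:**
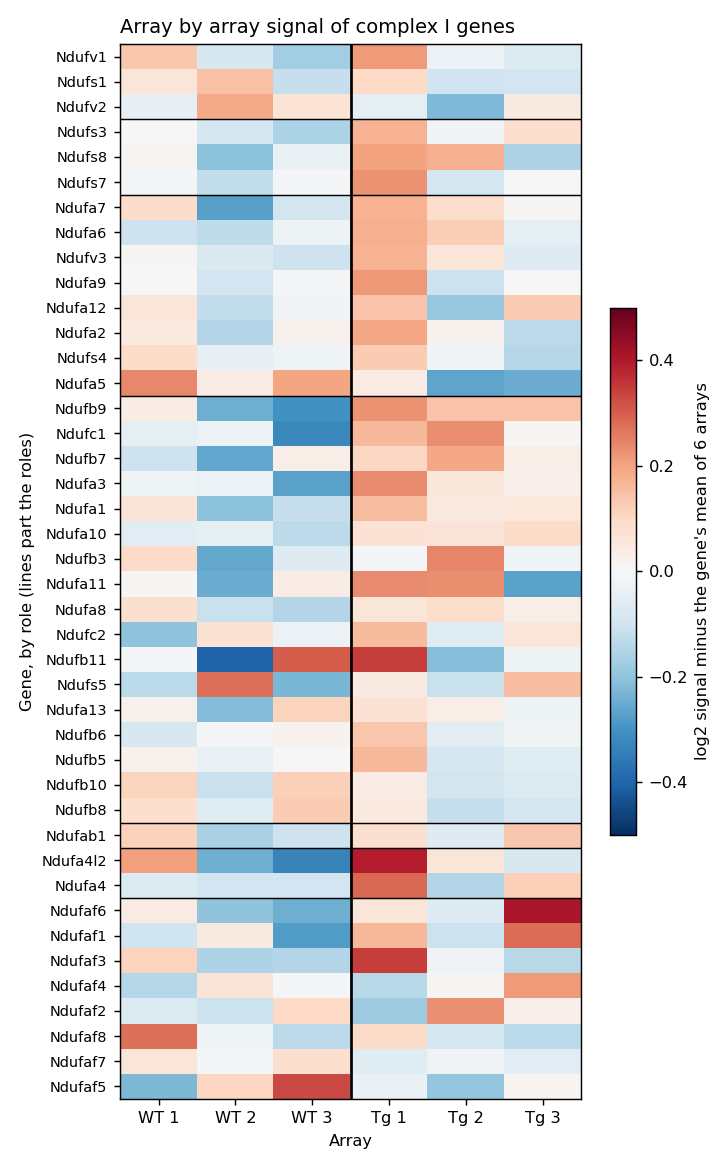
Log2 signal of each gene on each array minus the gene's mean over the 6 arrays (colour, red for higher), with genes grouped by role as in the plot of differences. Tg 1 is the reddest column for the subunits, where it is the highest array in 21 of 34 genes, but not for the assembly factors, where it is so in 1 of 8.

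The subunits also differed between mice of 1 genotype. Tg 1 was the highest of the 6 arrays in 21 of 34 subunits (61.8%) and the lowest in 0. It was also the highest in 24 of 48 genes of complexes II to V, in 20 of 71 mitochondrial ribosomal protein genes (28.2%) and in 20.5% of named genes. WT 2 was the lowest in 12 and WT 3 in 11. The mean deviation of the subunits from each gene's own mean was 0.02, -0.10 and -0.05 in WT and 0.15, -0.00 and -0.01 in Tg. Tg 2 and Tg 3 thus lay below WT 1. For the assembly factors the deviations were -0.01, -0.03 and -0.04 in WT and 0.03, -0.03 and 0.08 in Tg, with Tg 3 the highest.

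Markers of other cells and tissues also moved between these arrays. The 13 white adipocyte markers measured of 14 were all higher in Tg, with mean log2 signals of 9.30 to 9.62 in WT and 9.65 to 9.997 in Tg, and Tg 1 was the highest array here as in the subunits. All 10 macrophage markers were lower in Tg (10.17 to 10.29 in WT and 9.92 to 9.96 in Tg). The 6 T cell markers measured of 8 were all lower on average, with 4.07 in WT 1, 5.73 in WT 2, 6.28 in WT 3 and 3.99 to 4.95 in Tg. Of 16 epididymis markers, 12 were above 4 in Tg 2 and 0 on any other array, and their mean was 5.96 in Tg 2 and 1.22 to 1.51 elsewhere. Skeletal muscle markers averaged 2.72 to 3.06 on all arrays. Of 8 brown and beige markers 5 were higher and 3 lower in Tg, with list means of 3.35 to 3.997 in WT and 3.58 to 3.61 in Tg. Among them Ucp1, the uncoupling protein of brown fat, had the smallest p downward. It read 4.58, 4.05 and 3.34 in WT and 2.64, 2.34 and 2.35 in Tg, with groups apart (-1.55 ± 0.30, limma adjusted p = 0.33). Its Tg signals were no higher than the medians of those arrays (2.64 to 2.67). Elovl3 had the smallest p upward (0.60 ± 0.28, limma adjusted p = 0.53). It read 4.10, 3.62 and 3.32 in WT and 3.78, 4.64 and 4.43 in Tg, with overlapping groups. In bulk tissue, fewer cells of a type and less RNA per cell cannot be told apart, and the part of these markers in the subunit differences was not tested.

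**Figure D4:**
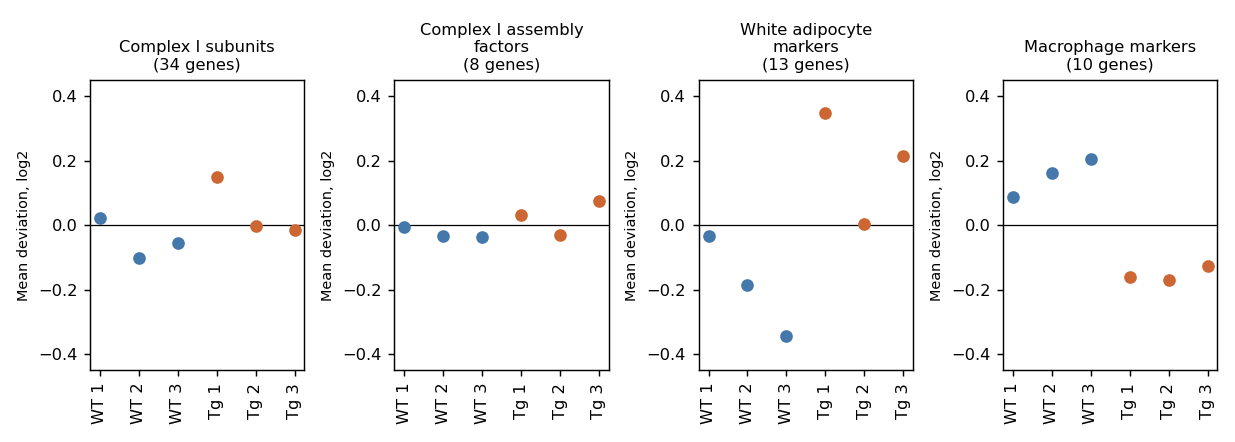
Mean deviation (log2) of 4 gene groups on each array from each gene's mean over 6 arrays (WT in blue, Tg in orange). Complex I subunits and white adipocyte markers are both highest in Tg 1, macrophage markers are lower on every Tg array, and the genotypes overlap in the subunits and assembly factors.

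WT 2 and WT 3 carried other transcripts of the male reproductive tract. Spink8 read 6.55 and 8.09 there and 1.16 to 2.53 on the other 4 arrays, and Serpina1f read 6.58 and 8.09 there and 1.39 to 1.66 elsewhere (both chosen after their values were seen). Only WT 1, Tg 1 and Tg 3 were low in both these genes and the epididymis markers. In those 3 arrays 21 of 34 subunits read higher in Tg, with a median of 0.04, and 4 of 8 assembly factors, with a median of 0.09. That comparison rests on 1 WT mouse, which is assumed to vary like the 2 Tg mice that alone give its spread, so its values are given without a test.

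The genes that act around complex I were described from lists of known function. Of 11 further assembly genes, 6 read higher and 5 lower in Tg, with a median difference of 0.01, and 0 passed in limma, also at an unadjusted p under 0.05. Acad9, a partner of Ndufaf1, had the smallest p upward (0.19 ± 0.10, adjusted p = 0.58), and Ecsit, another partner, the smallest downward (-0.12 ± 0.14, adjusted p = 0.79). Of 14 regulators of mitochondrial biogenesis, 7 read higher and 7 lower, with 0 past the threshold or at an unadjusted p under 0.05. Esrra, the gene of the nuclear receptor ERR alpha that drives respiratory genes, read 4.01 to 4.403 in WT and 4.36 to 4.57 in Tg (0.29 ± 0.14, adjusted p = 0.53). The coactivator gene Ppargc1a differed by 0.12 ± 0.18, and Nrf1 by -0.08 ± 0.11. Polrmt, the mitochondrial RNA polymerase gene, had the smallest p downward (-0.13 ± 0.12, adjusted p = 0.73).

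Other mitochondrial gene families, chosen by symbol start, gave smaller medians. Complexes II to V were taken as Sdh, Uqcr, Cyc1, Cox4 to Cox8 and Atp5, which includes Cox7a1 and Cox8b of the brown and beige list. The dimmest row averaged 0.65 in complexes II to V and 1.99 in the ribosomal proteins, against 3.36 in the complex I subunits. Median signals were 6.68, 5.59 and 6.67 in that order, so the sets are not alike in signal. Of 48 subunits of complexes II to V, 35 read higher in Tg with a median difference of 0.06, and of 71 mitochondrial ribosomal protein genes 38 did, with a median of 0.01. Limma called 0 genes in either family. At an unadjusted p under 0.05, 1 of the 48 was lower in Tg and 1 of the 71 was higher. Of all rows, 5.88% were so lower and 4.43% so higher. The differences between these families and complex I were not tested.

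**Figure D5:**
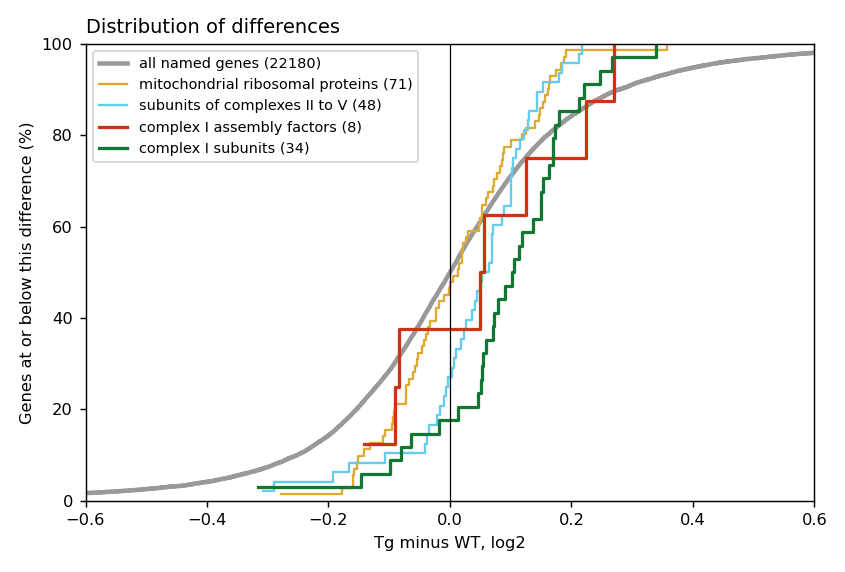
Cumulative share of genes (y axis, %) at or below a given Tg minus WT difference (x axis, log2) for complex I subunits, assembly factors, complexes II to V, mitochondrial ribosomal proteins and all named genes. The subunit curve crosses 50% at 0.10 and that of complexes II to V at 0.06, while the curve of all named genes crosses it at 0.00.

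Promoters show what members share that the rule did not use. Nuclear genes of the respiratory chain are classical targets of NRF1, a factor that binds a GC-rich palindrome, and of YY1. RefSeq promoters of build GRCm38.p6, which run from 250 bases before to 50 bases after a start site, were found for 37 of the 42 members (39 promoters). The letters GCATGCGC of the NRF1 motif, searched on both strands, were in 5 of the 39, or 12.8%, against 2.71% of all 32851 promoters. Those 5 are shown because they hold the NRF1 letters, in capitals, with overlapping matches merged and 10 flanking bases on each side.
Ndufa6 (chr15:82354357-82354384, minus strand): ccgcggtagaGCATGCGCattgcagagc
Ndufa8 (chr2:36049329-36049356, minus strand): cgctggagacGCATGCGCagatggtacc
Ndufa11 (chr17:56717692-56717721, plus strand): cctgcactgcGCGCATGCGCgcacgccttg
Ndufaf4 (chr4:24897960-24897989, plus strand): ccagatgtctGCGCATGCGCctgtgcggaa
Ndufaf5 (chr2:140170652-140170681, plus strand): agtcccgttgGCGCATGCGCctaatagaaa

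In Ndufa11, Ndufaf4 and Ndufaf5 the matches on the 2 strands overlap in 1 longer palindrome. They start 60 and 113 bases before the start site in Ndufa11 and Ndufaf4 and at base 17 after it in Ndufaf5, and Ndufaf4 has a second match at base 2. The 5 genes, 3 subunits and 2 factors, differed by between -0.14 (Ndufaf5) and 0.17 (Ndufa6), and 4 of 5 read higher in Tg.

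The YY1 letters AAGATGGC, also searched on both strands, were in 7 member promoters, or 17.9%, against 2.75% of all promoters. All 7 lay after the start site, between bases 11 and 46, on the strand of the gene. Shown here are the 3 that read highest in Tg relative to WT, with the YY1 letters in capitals.
Ndufc1 (chr3:51408916-51408943, minus strand): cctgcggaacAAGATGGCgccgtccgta
Ndufa3 (chr7:3617385-3617412, plus strand): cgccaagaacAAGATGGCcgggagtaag
Ndufs7 (chr10:80249463-80249490, plus strand): ggccgaggccAAGATGGCggcgctggcg

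Ndufc1 and Ndufa3 are among the genes with groups apart, but Ndufb8, Ndufs4 and Ndufaf8, which hold the same letters, read lower in Tg, and over the 7 genes 4 read higher with a median of 0.07. The ETS letters CCGGAAG, bound by GABPA, were in 6 member promoters (15.4%, against 8.86% of all), and those 6 genes had a median difference of 0.16 with 5 higher. The ERR letters AAGGTCA was in 1 (2.56%, against 4.72%), that of Ndufs5. The matches of different motifs did not overlap, and a match is a description of letters, not of binding.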

How the data were processed

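Per the labels, RNA of eWAT from 3 WT and 3 Tg mice was hybridised to Affymetrix arrays. The authors deposited 1 log2 value per array and row, and RMA and limma were named without versions or settings, per the submitters' processing notes. The genome build was not given in the sources used here. RMA normalizes between arrays, so a change in total RNA cannot be seen, and it compresses differences between low signals. Labels call the replicates biological, and each array was taken as 1 mouse. The number of arrays limits the precision.

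Of 41345 rows, 23521 named 1 gene, 1814 several and 16010 none in the platform annotation. Tg was compared with WT by limma's lmFit and eBayes (limma 3.58.1, R 4.3.3), 2-sided, over all rows without filter or covariate, with Benjamini-Hochberg adjustment over all rows and a threshold of 0.05. An exact permutation test of 3 against 3 cannot go below p = 0.1. The fit was tested on simulated data of 3 against 3 arrays, with noise drawn separately for each row. At an adjusted p of 0.05 limma recovered 56% of rows changed 2-fold and 90% of rows changed 4-fold, with 6 calls among unchanged rows. The simulated arrays held no shift shared by many rows, such as that of the tract transcripts. Recovery on the real arrays may therefore be lower. Members, lists and roles were chosen with earlier results of these data known. Per-array values are given for core subunits, the Ndufa4 pair, assembly factors and the 4 other subunits with the smallest p in each direction, with Ndufa10 added because its groups were apart. Of the further assembly genes, the biogenesis regulators and the brown and beige markers, the gene with the smallest p per direction is named. Ppargc1a and Nrf1 were named after their values were seen. Alternatives left out each array, rescaled the arrays in 3 ways, and changed the rows tested, the row per gene, the variance model, weights and blocking. Protein sequences were not used here.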

Additional observations from a re-analysis of the deposited data

How the results depend on the processing

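With 3 arrays per group small differences cannot be resolved, and signal over background is unknown here. Under 15 alternatives 0 of 42 members passed an adjusted p of 0.05 in limma, and the smallest adjusted p was 0.25. The other alternative, WT 1, Tg 1 and Tg 3 alone, takes its spread from 2 mice. Its counts of calls say nothing about stability and are not given. The sign of 19 members (16 subunits and 3 assembly factors) was kept under all 16. It turned in 0 members with array weights, an intensity trend with robust variance, brighter rows, 1-gene rows, gene means or the replicate block.

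Same-numbered arrays did not deviate alike (correlations of deviations -0.04, 0.01 and -0.04, and WT 1 was closest to Tg 3 at 0.07). All these correlations were small, so whether the mice were paired is not settled by them. The replicate block left 28 subunits and 5 assembly factors higher in Tg, medians of 0.10 and 0.05, and 1 member each way at an unadjusted p under 0.05.

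The count higher in Tg at an unadjusted p under 0.05 was 3 with an intensity trend (4.72% of all rows) and 2 with median centring (6.99%). That of members lower was 0 with the trend (6.21% of all rows), median centring (3.82%), quantile (4.72%) or loess scaling (5.18%). Leaving out 1 array gave 0 to 1 for either. In those fits 3104 (without WT 2) to 5089 (without WT 1) of 41345 rows had such a p, both directions together. The median of the assembly factors was 0.12 with median centring, 0.11 with quantile scaling and 0.0061 to 0.075 with 1 array left out. Subunits less assembly factors gave -0.045 in WT 1, Tg 1 and Tg 3 alone. With 1 array left out it ranged from -0.0091 to 0.13, the subunit median from 0.05 to 0.15 and the subunits higher from 21 to 29. The causes were not tested.

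In WT 1, Tg 1 and Tg 3 alone the sign turned in 12 members, with differences of -0.022 for Ndufa11, -0.019 for Ndufa2, -0.051 for Ndufa4l2, -0.0023 for Ndufa7, -0.035 for Ndufa8, -0.0060 for Ndufab1, -0.0092 for Ndufaf2, -0.0073 for Ndufaf3, 0.22 for Ndufaf5, -0.10 for Ndufb3, -0.062 for Ndufv1 and 0.042 for Ndufv2. Ndufs4 turned to 0.0014 with loess, 0.0073 with quantile and 0.047 with median scaling, and Ndufs1 to 0.00058 with the last. With 1 array left out, 22 members kept their sign but moved over 1.5 times, and 14 turned. The differences whose sign turned ranged from -0.0055 to 0.16 for Ndufa12, -0.040 to 0.12 for Ndufa13, -0.032 to 0.13 for Ndufa2, -0.019 to 0.14 for Ndufa9, -0.052 to 0.15 for Ndufaf2, -0.016 to 0.23 for Ndufaf3, -0.036 to 0.14 for Ndufaf4, -0.17 to 0.033 for Ndufaf8, -0.11 to 0.24 for Ndufb11, -0.066 to 0.057 for Ndufb5, -0.012 to 0.083 for Ndufb6, -0.086 to 0.048 for Ndufs4, -0.040 to 0.21 for Ndufs5 and -0.0084 to 0.17 for Ndufv1.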
